A study of Mus musculus with 4 samples.

Results

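Accessible chromatin near 40 mouse genes of the interferon response was followed together with the footprints of the IRF and STAT transcription factors. The genes were taken from a list, and a site belonged to a gene where its centre lay within 3000 bp of a transcription start site (TSS) of that gene in GENCODE vM1 on mm9. This rule gave 55 sites of the 119609 in the table, for 37 of the 40 genes, and 18 of the 709 footprint motifs by an IRF or STAT name. Mx1, Oas1a and Oas2 had no site, and Tap1 and Psmb9 shared 1. Of all sites, 23377 lay within 3000 bp of a TSS and serve as the promoter background below.

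The cells were 1 immortalized mouse embryo fibroblast line, iMEF2, carrying an shRNA against p19Arf, loxP sites around exon 4 of Ash2l, and Cre-ER, a recombinase that 4-hydroxytamoxifen (HOT) switches on. Ash2l is a core subunit of the complexes that methylate lysine 4 of histone H3. ATAC-seq, in which the Tn5 transposase cuts and tags open chromatin, was run after 7 days with 5 nM HOT (+HOT) or with the ethanol solvent (-HOT), in 2 technical replicates each. All 4 libraries carry the floxed alleles, Cre-ER and the shRNA, so that the effects of the drug, of active Cre and of Ash2l loss cannot be told apart, and p-values measure only the spread between technical replicates of 1 line.

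Interferons are secreted upon infection and act through receptors on the cell surface. Type I interferons bind Ifnar1 and Ifnar2, interferon-gamma binds Ifngr1 and Ifngr2, and the receptors signal through Janus kinases to STAT proteins, which enter the nucleus. There, complexes of STAT and IRF proteins bind the promoters of interferon-stimulated genes, whose products restrict viruses or load peptides for antigen presentation. Fibroblasts make interferon-beta when cytosolic sensors meet foreign RNA or DNA.

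The promoters of 4 of the genes whose sites fell most are shown first. Each runs 5′ to 3′ on the strand of its gene from 250 bases before to 50 after a RefSeq start (GRCm38.p6), and was placed on mm9 by an exact match. Capitals mark, on either strand, the core letters of IRF recognition elements (GAAA, any 2 bases, GAAA; IRF letters below) and those of STAT elements (TTCNNNGAA; STAT letters below); in Bst2 the matches of both kinds overlap. The 4 promoters lie at chr9:78290995-78291294 (minus strand, Mb21d1, RefSeq symbol Cgas), chr6:29476375-29476674 (plus strand, Irf5), chr8:74061322-74061621 (minus strand, Bst2) and chr19:34624934-34625233 (plus strand, Ifit2).
Mb21d1: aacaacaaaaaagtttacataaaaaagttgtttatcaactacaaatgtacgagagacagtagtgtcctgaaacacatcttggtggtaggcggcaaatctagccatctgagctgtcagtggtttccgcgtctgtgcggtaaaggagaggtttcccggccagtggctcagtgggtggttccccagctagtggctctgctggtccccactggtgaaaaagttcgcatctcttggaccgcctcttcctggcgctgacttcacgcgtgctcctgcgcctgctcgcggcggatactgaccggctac
Irf5: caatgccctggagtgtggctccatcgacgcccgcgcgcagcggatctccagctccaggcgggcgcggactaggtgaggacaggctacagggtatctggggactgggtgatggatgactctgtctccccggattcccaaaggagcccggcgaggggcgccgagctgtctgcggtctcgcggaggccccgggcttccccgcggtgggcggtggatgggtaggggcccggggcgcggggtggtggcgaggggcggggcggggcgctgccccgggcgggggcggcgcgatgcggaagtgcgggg
Bst2: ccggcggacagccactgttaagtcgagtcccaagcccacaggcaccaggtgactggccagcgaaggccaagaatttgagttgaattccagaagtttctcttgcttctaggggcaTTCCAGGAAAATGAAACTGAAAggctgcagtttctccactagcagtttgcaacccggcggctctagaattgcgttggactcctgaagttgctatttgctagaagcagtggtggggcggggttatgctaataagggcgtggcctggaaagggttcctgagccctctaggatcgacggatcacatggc
Ifit2: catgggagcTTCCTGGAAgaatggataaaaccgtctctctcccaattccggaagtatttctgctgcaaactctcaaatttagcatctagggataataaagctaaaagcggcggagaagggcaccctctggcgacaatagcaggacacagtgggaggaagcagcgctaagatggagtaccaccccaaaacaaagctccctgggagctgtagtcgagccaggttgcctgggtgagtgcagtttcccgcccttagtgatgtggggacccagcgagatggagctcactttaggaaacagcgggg

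The middle of the site with the greatest gain, in an intron of Ifngr2, is shown as well, on the plus strand (chr16:91561189-91561488). It carries a run of TG repeats and holds neither set of letters. The Mb21d1 and Irf5 promoters above hold neither set as well.
Ifngr2 intron site: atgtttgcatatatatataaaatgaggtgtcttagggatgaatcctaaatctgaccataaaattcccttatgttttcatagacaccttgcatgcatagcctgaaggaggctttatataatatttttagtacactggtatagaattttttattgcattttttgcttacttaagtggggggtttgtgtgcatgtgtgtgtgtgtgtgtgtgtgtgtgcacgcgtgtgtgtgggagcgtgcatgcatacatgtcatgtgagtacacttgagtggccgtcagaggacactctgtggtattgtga

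Among 41 RefSeq promoters of the 34 members that matched a symbol, 12 held the IRF letters, or 29.3%, against 3.44% of all 32851 promoters of the same length. The STAT letters were in 9 of them, or 22.0%, against 8.30% of all. The stretches with the IRF letters are shown for the antiviral genes and the sensors, since these are the classical targets, with 8 bases on each side where the 300-base window allowed. Isg15 held 3 overlapping matches, Ifit1 and Ifit3 held 2 apart, and Ddx58, the RIG-I gene, and Rsad2 held 1 each, all of these 4 genes on the opposite strand.
Isg15: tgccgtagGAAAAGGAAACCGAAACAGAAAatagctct
Ifit1: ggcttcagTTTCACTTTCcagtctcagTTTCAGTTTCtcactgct
Ifit3: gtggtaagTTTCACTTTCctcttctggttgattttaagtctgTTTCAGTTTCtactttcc
Oas1a: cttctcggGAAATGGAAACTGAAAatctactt
Rsad2: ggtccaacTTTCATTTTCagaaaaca
Ifih1: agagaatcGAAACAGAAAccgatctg
Ddx58: tgaggcagTTTCGATTTCctatggcc
On mm9 they lie at chr4:155574976-155575013, chr19:34715267-34715311, chr19:34657855-34657914, chr5:121357531-121357562, chr12:27141420-27141445, chr2:62484263-62484288 and chr4:40186839-40186864, in that order. A match is a description of letters and not a bound site.

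The libraries held between 21356440 and 37151163 reads in the sites, and 119603 sites were tested. Levels are given as CPM, the read count of a site scaled to the reads of its library in all sites after TMM, and changes as log2 of +HOT over -HOT with the standard error (SE) of edgeR's quasi-likelihood fit. Calls of gained or lost sites needed an adjusted p under 0.05, over all tested sites, and a log2 fold change past 0.40. Over all sites 21.3% were called gained and 14.2% lost (25433 and 17008 sites; 15091 and 11960 with DESeq2, and 21695 and 22981 when the TMM factors were taken from sites over 3000 bp from every TSS), while of the promoter background 8.21% were gained and 22.8% lost. No site overlapped Ash2l exon 4, so the deletion itself could not be checked here; the Ash2l promoter site had 35.6 and 31.6 CPM in -HOT and 30.9 and 25.3 CPM in +HOT and was not called. All 10 fibroblast markers had a site, with summed levels of 609 to 638 CPM in -HOT and 476 to 502 CPM in +HOT. Of 10 blood and macrophage markers 4 had one, namely Cd14, Cd68, Csf1r and Lyz2. Ptprc, Itgam, Cd3e, Emr1 and Spi1 were among those with none. The sites of Cd14 and Cd68 were called lost, and those of Csf1r and Lyz2 were not called. The summed level of these 4 markers was 65.2 to 67.3 CPM in -HOT and 46.3 to 49.4 CPM in +HOT. For 5 of 6 endothelial markers it was 56.6 to 63.1 CPM against 43.9 to 46.6 CPM, and for 5 of 6 epithelial markers 54.8 to 55.5 CPM against 39.8 to 41.0 CPM. The sums cover 27 fibroblast, 5 blood and macrophage, 7 endothelial and 11 epithelial sites, so they are not levels per site. In that order 14, 2, 3 and 5 of these sites were called lost and 1, 0, 0 and 1 gained by edgeR. This is 51.9% lost for the fibroblast, 42.9% for the endothelial and 45.5% for the epithelial markers, beside the 22.8% of the promoter background. A high share was thus not particular to the fibroblast markers. Most of the lost fibroblast sites belong to Col1a1 and Col1a2, and the others to Thy1, Vim and Twist1. Only 5 of the 10 fibroblast genes had a lost site. The part of these shifts in the results below was not tested, and a site open in fewer cells cannot be told apart from one less open in each cell.

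Of the 55 member sites, 6 were gained, 10 were lost and 39 were not called, which is 10.9% gained and 18.2% lost beside the 8.21% and 22.8% of the promoter background. The median log2 fold change of the members was -0.13, against -0.19 in the promoter background and 0.00 over all sites. Of the 55 member sites 40 lay below 0, beside 17151 of the 23377 sites of the promoter background. Both +HOT libraries lay below both -HOT libraries at 24 member sites and above them at 10, while the groups overlapped at 21; in the background 56.2% lay below and 16.6% above. The share of lost sites was thus near that of promoter sites in general, and the members differed widely among themselves, from -1.11 to 1.45.

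**Figure D1:**
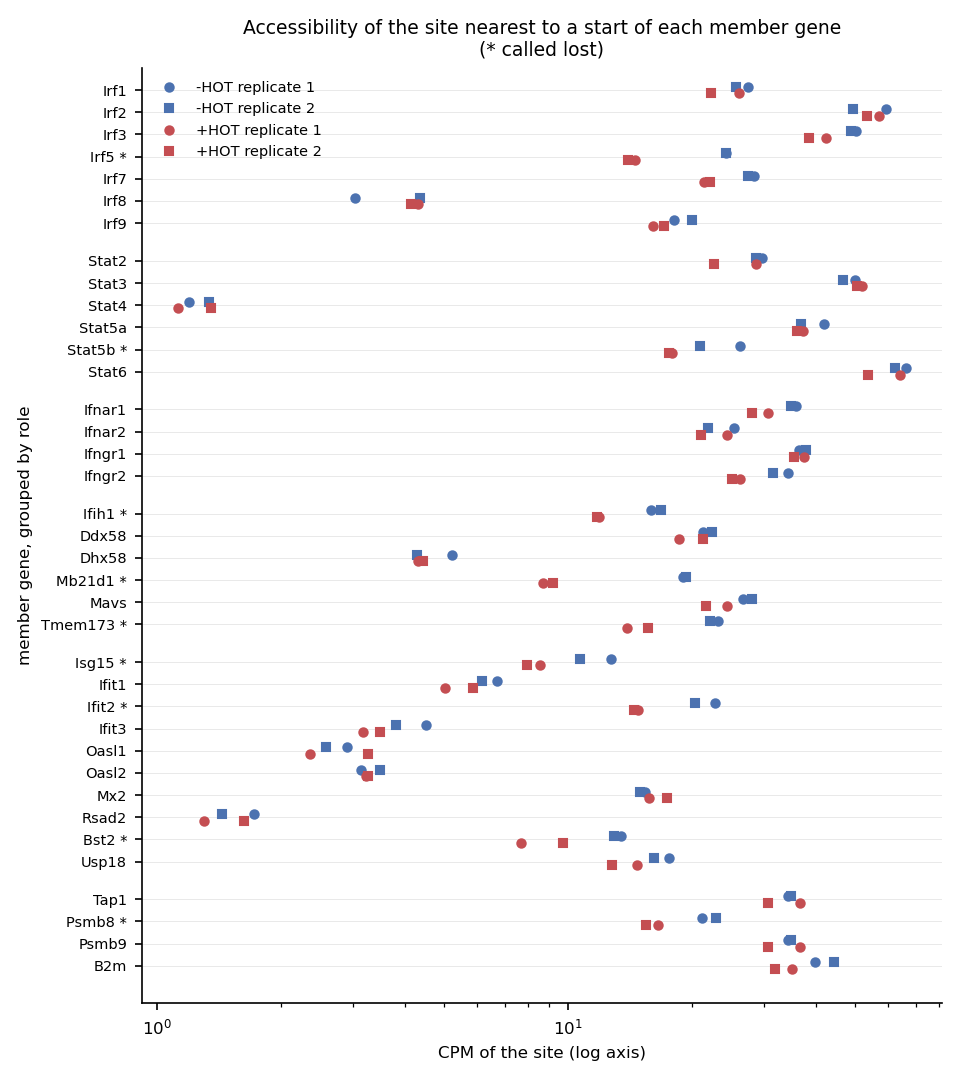
CPM in each of the 4 libraries for the site nearest to a TSS of each of the 37 member genes, on a log axis, grouped by role; circles are replicate 1, squares replicate 2, blue -HOT and red +HOT, and an asterisk marks a gene whose nearest site was called lost. For Mb21d1 and Irf5 the red and blue points are farthest apart, while for Irf2, Ifnar2, Ifngr1 and Tap1 they overlap; Tap1 and Psmb9 show the same site.

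The cytosolic sensors and their adaptors held 3 lost and 0 gained sites among 9 by edgeR (0 gained by DESeq2, and 1 higher at an unadjusted p under 0.05), and their median log2 fold change was -0.24; in the promoter background 22.8% were lost and 8.21% gained, and with 9 sites the counts are not set apart from these shares. Mb21d1 encodes cGAS, which binds DNA in the cytosol and makes the messenger cGAMP. Its promoter site (chr9:78289468-78291353, over exon and start, and over the first sequence above) had 19.03 and 19.32 CPM in -HOT and 8.67 and 9.17 CPM in +HOT. This was the lowest log2 fold change of all member sites, -1.11 ± 0.11 (SE; edgeR adjusted p = 7.86e-15), and the replicates of each group lay close together and far from the other group. Tmem173 encodes STING, the receptor of cGAMP, so that it acts right after cGAS. Its promoter site had 23.2 and 22.2 CPM in -HOT and 13.9 and 15.6 CPM in +HOT, without overlap, a log2 fold change of -0.62 ± 0.10 (edgeR adjusted p = 4.64e-07).

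The RNA sensors had 1 lost promoter site. Ifih1 encodes MDA5, the sensor of long double-stranded RNA, and its promoter site fell from 15.9 and 16.8 CPM to 11.9 and 11.7 CPM (log2 fold change -0.47 ± 0.11, edgeR adjusted p = 2.79e-04); with abundance-trended offsets, which remove each library's trend with the level of a site, it was -0.30 and not called. Ddx58 encodes RIG-I, the sensor of RNA with 5′ triphosphates. Its promoter site had 21.2 and 22.4 CPM in -HOT and 18.6 and 21.3 CPM in +HOT, which overlap, and was not called. For Dhx58 the site nearest to a TSS, at -107 bp, holds the IRF letters. That site had 5.22 and 4.28 CPM in -HOT and 4.32 and 4.42 CPM in +HOT, which overlap, and was not called. The strongest site of Dhx58, which encodes the related helicase LGP2, is centred at 704 bp and had 18.9 and 18.2 CPM against 13.8 and 15.7 CPM, a log2 fold change of -0.34 (edgeR adjusted p = 0.00674) that is short of the fold minimum; it was called without +HOT replicate 2 (-0.43) and with TMM factors from sites over 3000 bp from every TSS (-0.42). Mavs, the mitochondrial adaptor of both RNA sensors, was short of the minimum as well, at -0.24 (edgeR adjusted p = 0.0381).

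Among the 11 sites of the 7 IRF genes, 1 was lost, at a promoter, and 2 were gained, or 9.09% and 18.2%. In the promoter background these shares were 22.8% and 8.21%, and with 11 sites the counts are not set apart from them. The median log2 fold change over the 11 sites was -0.12, which turned to 0.08 under abundance-trended offsets and to 0.09 once the GC trend was taken out. Irf5, a factor downstream of Toll-like receptors that drives inflammatory cytokines, had 24.2 and 24.2 CPM in -HOT and 14.6 and 14.0 CPM in +HOT at its promoter site (chr6:29476139-29479259). The log2 fold change was -0.76 ± 0.10 (edgeR adjusted p = 1.4e-09), and the groups lay far apart. A second Irf5 site, centred in an exon at 1297 bp, had 5.50 and 6.06 CPM in -HOT and 7.62 and 7.13 CPM in +HOT, and its log2 fold change of 0.36 was short of the fold minimum; with library totals in place of TMM it was 0.43 and called.

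Irf3 and Irf7, which sensors activate to switch on the interferon genes, had promoter sites that were lower in both +HOT libraries without reaching the fold minimum. For Irf3, whose site also covers the start of Bcl2l12, the levels were 50.3 and 48.8 CPM against 42.4 and 38.6 CPM (log2 fold change -0.29, edgeR adjusted p = 0.00917). For Irf7 they were 28.3 and 27.3 CPM against 21.4 and 22.2 CPM (-0.35, edgeR adjusted p = 0.00231), and with TMM factors from sites over 3000 bp from every TSS (distal sites) the value was -0.43 and called. Irf9, which binds DNA in the complex formed after type I interferon, had 18.1 and 20.0 CPM against 16.1 and 17.1 CPM, with a log2 fold change of -0.20 that did not pass the test (edgeR adjusted p = 0.12). The promoter sites of Irf1, an activator, and of Irf2, its antagonist, overlapped between the groups, as did both start sites of Irf8, a factor of myeloid cells.

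Gained sites of the IRF genes lay away from the promoters and had few reads. A site in an Irf8 intron at 1209 bp (chr8:123270402-123270777) rose from 1.00 and 1.00 CPM to 2.91 and 1.81 CPM, a log2 fold change of 1.25 ± 0.29 (edgeR adjusted p = 2.44e-04); without +HOT replicate 1 it was 0.85 and not called (edgeR adjusted p = 0.0777). The second Irf3 site, at 2932 bp and inside the neighbouring gene Scaf1, had 1.00 and 1.10 CPM against 1.33 and 2.44 CPM (0.81 ± 0.31, edgeR adjusted p = 0.0278). Its call rests on +HOT replicate 2, without which the value was 0.35; it was also lost with DESeq2 (0.82), with abundance-trended offsets (0.51), without -HOT replicate 1 (0.74) and without -HOT replicate 2 (0.88).

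The 6 STAT genes held 13 sites with a median log2 fold change of -0.12, of which 2 were lost, both at Stat5b, and 1 was gained. That is 15.4% lost and 7.69% gained, beside 22.8% and 8.21% in the promoter background. Stat5b carries signals of growth hormone and several cytokines, and its promoter site fell from 26.3 and 20.9 CPM to 17.9 and 17.6 CPM (log2 fold change -0.41 ± 0.10, edgeR adjusted p = 6.06e-04). This value stands at the fold minimum, and without -HOT replicate 1, the higher of the 2, it was -0.24 and not called, nor was it with library totals (-0.34), the GC trend removed (-0.22) or abundance-trended offsets (-0.21). A Stat5b intron site at 970 bp fell from 2.28 and 1.84 CPM to 1.26 and 1.08 CPM (-0.81 ± 0.29, edgeR adjusted p = 0.0189); its call was lost without -HOT replicate 1 (-0.64), without +HOT replicate 2 (-0.71) and with DESeq2 (-0.82).

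At Stat3, the factor of the interleukin-6 family, the promoter site was among the few member promoters that were not lower in +HOT. It had 49.8 and 46.7 CPM in -HOT and 51.8 and 50.3 CPM in +HOT, and its log2 fold change of 0.08 ± 0.09 did not pass the test (edgeR adjusted p = 0.496). Of 4 further Stat3 sites near inner starts, the one in an intron at -2810 bp was gained, from 0.97 and 1.61 CPM to 2.21 and 2.39 CPM (0.85 ± 0.28, edgeR adjusted p = 0.0103). Its call was lost without -HOT replicate 1 (0.51) and without +HOT replicate 2 (0.80), with DESeq2 (0.84) and with abundance-trended offsets (0.58). Stat2, the partner of Irf9, had 29.7 and 28.6 CPM against 28.6 and 22.6 CPM and was not called, the promoter sites of Stat5a and Stat6 overlapped between the groups, and Stat4, a factor of lymphocytes, had only sites with under 4 CPM in every library.

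The receptors had 0 lost sites of 6 by edgeR and by DESeq2, and 2 were lower at an unadjusted p under 0.05. Of the 6 sites 1 was gained. In the promoter background 22.8% were lost and 8.21% gained, and with 6 sites the counts are not set apart from these shares. At the promoters of Ifnar1 and Ifngr2 both +HOT libraries lay below both -HOT libraries: 35.9 and 34.7 CPM against 30.6 and 28.0 CPM for Ifnar1 (log2 fold change -0.27, edgeR adjusted p = 0.0186), and 34.2 and 31.4 CPM against 26.2 and 25.1 CPM for Ifngr2 (-0.36, edgeR adjusted p = 0.00164). Both were short of the fold minimum; the Ifngr2 value was called without -HOT replicate 2 (-0.42) and with TMM factors from distal sites (-0.44). At Ifnar2 and Ifngr1, the other chain of each receptor, the promoter sites overlapped between the groups. The intron site of Ifngr2 shown above (chr16:91561091-91561586), centred at -230 bp from the start of an inner transcript, was the most strongly gained member site. It rose from 1.31 and 1.54 CPM to 3.76 and 4.02 CPM, a log2 fold change of 1.45 ± 0.24 (edgeR adjusted p = 2.82e-07), with the groups far apart beside the spread of their replicates.

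**Figure D2:**
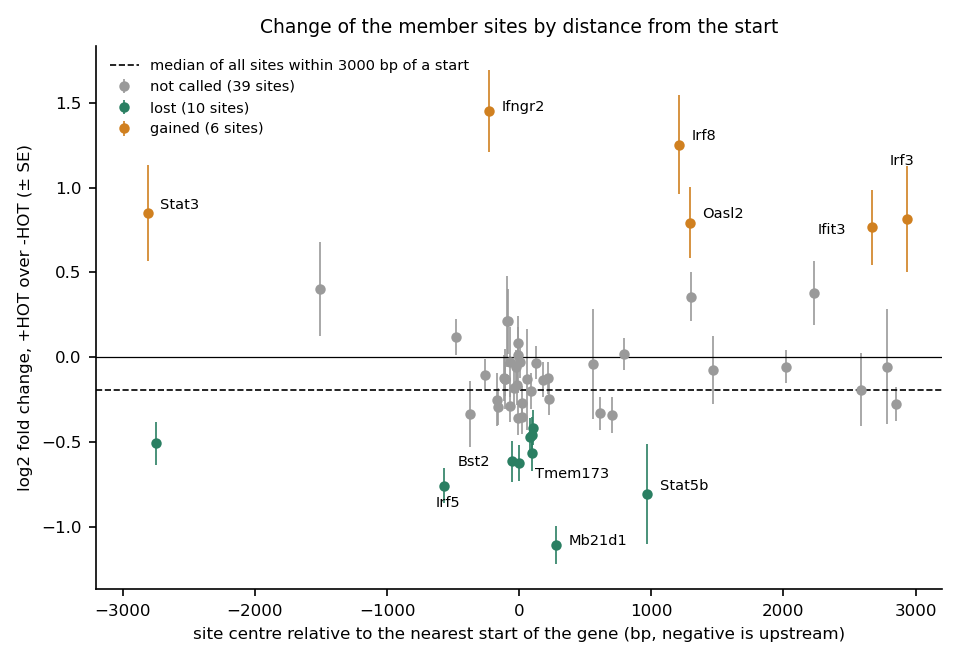
Log2 fold change (+HOT over -HOT) with its standard error for the 55 member sites, against the distance of the site centre from the nearest TSS of the gene in bp; orange sites were called gained, green lost, grey not called, and the dashed line is the promoter background median of -0.19. Of the 6 gained sites, 5 lie over 1000 bp from the TSS and the sixth, of Ifngr2, lies at an inner start; 9 of the 10 lost sites lie within 1000 bp.

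The antiviral effectors held 13 sites for 10 genes, with a median log2 fold change of -0.13. Of these sites 3 were lost and 2 gained, or 23.1% and 15.4%, beside 22.8% and 8.21% in the promoter background. With 13 sites the counts are not set apart from these shares. Bst2 encodes tetherin, which holds budding virions at the cell surface. Its promoter site (chr8:74060907-74061881), over the overlapping IRF and STAT letters printed above, fell from 13.44 and 12.96 CPM to 7.69 and 9.71 CPM (log2 fold change -0.61 ± 0.12, edgeR adjusted p = 1.83e-05). Ifit2, an RNA-binding inhibitor of translation, fell at its promoter site (chr19:34624776-34625812) from 22.8 and 20.4 CPM to 14.8 and 14.4 CPM (-0.56 ± 0.11, edgeR adjusted p = 5.02e-06); abundance-trended offsets gave -0.37, which was not called. In both, the 2 groups lay apart by more than the replicates of either group. A second Ifit2 site, at 2020 bp, overlapped between the groups.

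Isg15 encodes a ubiquitin-like protein that is conjugated to other proteins, and no site overlapped its own promoter, the one with 3 overlapping matches of the IRF letters. The only site assigned to it is centred at -2751 bp and covers the start of the neighbouring gene AW011738. That site fell from 12.7 and 10.7 CPM to 8.53 and 7.95 CPM (log2 fold change -0.51 ± 0.13, edgeR adjusted p = 5.28e-04), and it was not called without -HOT replicate 1 (-0.38) or with the GC trend removed (-0.30). It is counted as a member by distance alone.

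Ifit1 and Ifit3, the other Ifit genes on the list, had promoter sites over their IRF letters with few reads. Ifit1 had 6.69 and 6.16 CPM against 5.02 and 5.87 CPM (log2 fold change -0.25, edgeR adjusted p = 0.187), at a site that also covers the start of the overlapping gene 2010002M12Rik. Ifit3 had 4.50 and 3.82 CPM against 3.16 and 3.48 CPM (-0.34, edgeR adjusted p = 0.16). Neither passed the test, although in both cases the +HOT libraries were the lower ones; with abundance-trended offsets the Ifit3 value was -0.47 and called lost. An Ifit3 intron site at 2671 bp was gained, from 2.19 and 2.21 CPM to 3.58 and 3.93 CPM (0.76 ± 0.22, edgeR adjusted p = 0.0028). Oasl2, a relative of the enzymes that make 2′-5′ oligoadenylates, gained a site in an intron at 1293 bp as well, from 3.08 and 1.81 CPM to 4.11 and 4.52 CPM (0.79 ± 0.21, edgeR adjusted p = 0.00123); without -HOT replicate 2 it was 0.47 and not called.

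At Mx2, a dynamin-like GTPase, 15.4 and 15.0 CPM stood against 15.7 and 17.4 CPM, and the log2 fold change of 0.12 did not pass the test (edgeR adjusted p = 0.381). Usp18, which removes Isg15 from its targets and restrains the type I receptor, had 17.6 and 16.2 CPM against 14.7 and 12.8 CPM. Its log2 fold change of -0.29 (edgeR adjusted p = 0.0235) was short of the fold minimum and was -0.40 and called without +HOT replicate 1. The promoter sites of Oasl1, Oasl2 and Rsad2, which encodes viperin, had under 4 CPM in every library and overlapped between the groups.

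Of the 3 sites of the antigen presentation genes, 1 was lost, at Psmb8, and 0 were gained by edgeR, beside 22.8% and 8.21% in the promoter background. Psmb8 encodes a catalytic subunit of the immunoproteasome. Its promoter site fell from 21.2 and 22.9 CPM to 16.5 and 15.5 CPM (log2 fold change -0.46 ± 0.10, edgeR adjusted p = 1.67e-04). It was not called with library totals (-0.39), the GC trend removed (-0.34) or abundance-trended offsets (-0.26). The nearby site between Tap1, a peptide transporter, and Psmb9, another immunoproteasome subunit, had 34.2 and 34.8 CPM against 36.6 and 30.7 CPM and did not separate the groups. B2m, the light chain of class I molecules, had 39.9 and 44.4 CPM against 35.1 and 31.8 CPM. Its log2 fold change of -0.33 (edgeR adjusted p = 0.00319) was short of the minimum; it was called without -HOT replicate 1 (-0.41), without +HOT replicate 1 (-0.40) and with TMM factors from distal sites (-0.41).

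The gained and the lost member sites lay at different places. Over all genes, too, gained sites were a larger share of the farther than of the nearest sites, and of weaker than of stronger ones. Of the 36 sites nearest to a TSS of their gene, 9 were lost and 0 gained by edgeR (0 by DESeq2 and 0 higher at an unadjusted p under 0.05), beside shares of 23.6% and 5.84% for the nearest sites of all genes. The median of these 36 was -0.22, and that of the nearest sites of all genes -0.22. Of the 19 farther sites 6 were gained and 1 lost, or 31.6% and 5.26%, beside 11.8% and 21.5% for the farther sites of all genes, with medians of 0.21 and -0.13. At a mean of 10 CPM or more, 8 of 31 member sites were lost and 0 gained, again 0 by DESeq2 and at an unadjusted p under 0.05, while in the background at that level 24.0% were lost and 0.861% gained. Below 10 CPM, 6 of 24 were gained and 2 lost, against 16.9% and 21.4%. Whether the members differ from these shares was not tested.

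Across the 55 sites, longer sites, sites with more CpG and sites with more reads had the lower fold changes. Spearman's rho of the log2 fold change was -0.463 with length, -0.397 with the observed-to-expected CpG ratio, -0.333 with mean CPM and -0.171 with GC content, beside -0.274, -0.245, -0.204 and -0.151 over the 23377 promoter sites. These sites share the same 4 libraries, and length, CpG content and reads go together, so the values are descriptions only.

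**Figure D3:**
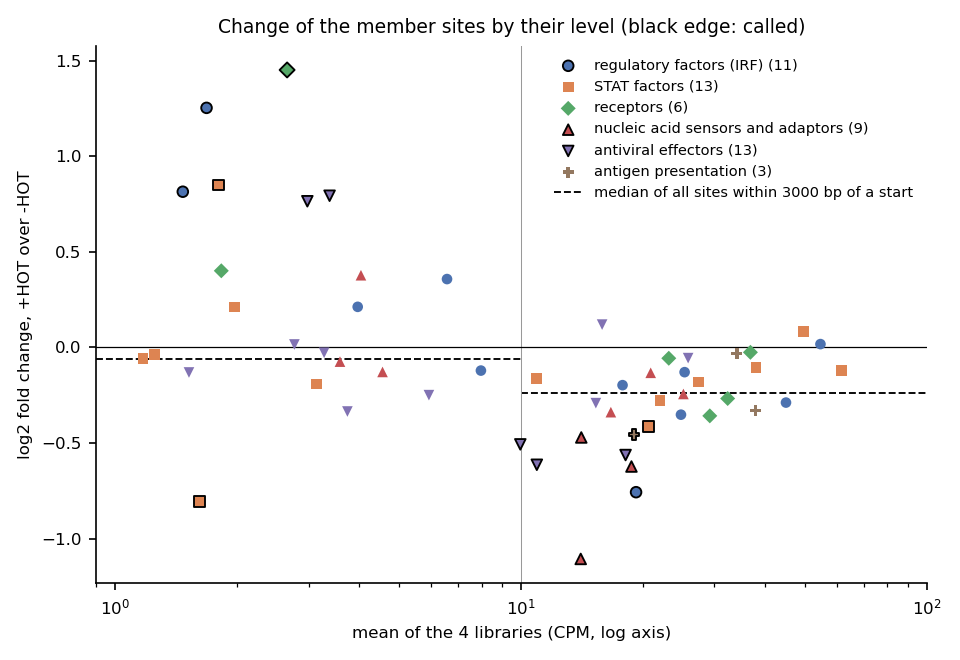
Log2 fold change (+HOT over -HOT) of the 55 member sites against their mean CPM over the 4 libraries (log axis), with marker and colour by role and a black edge for called sites; the dashed lines are the promoter background medians below and above 10 CPM. All 6 gained sites lie to the left of 10 CPM and 8 of the 10 lost ones to the right.

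Promoter sites with and without the letters were set side by side, with no test of the difference. Among promoter sites with the IRF letters in the central 300 bases, 25.4% of 780 were lost and 10.8% gained, against 22.7% and 8.12% of the 22597 without, and the median was -0.19 in both. With the STAT letters 23.1% of 1713 were lost and 11.4% gained, against 22.8% and 7.96% of those without, with medians of -0.17 and -0.20. Of the member sites 8 held the IRF letters there, 2 of which were lost, and 5 held the STAT letters, 2 of which were lost.

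Footprints address a different question, namely how strongly the letters of a motif are shielded from the transposase across all sites. For each motif the authors' table gives a protection score and a tag count in -HOT and +HOT after the replicates were merged, so that these values have no replicate error and no test was made. Of the 18 IRF and STAT motifs 17 had at least 1000 sites. The summed change of both measures, +HOT minus -HOT, was below 0 for 12 of the 17, beside 51.5% of all 559 motifs of that size, with a median of -0.0200 against -0.00174. The 17 ranged from -0.0567 for IRF4 to 0.0197 for IRF1, while the quartiles of all 559 motifs were -0.0393 and 0.0280.

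The IRF motifs had the lower values. Protection was lower in +HOT for 7 of the 8 IRF motifs with at least 1000 sites, beside 51.2% of all such motifs. The IRF3 motif, at 5149 sites, went from 0.697 to 0.655, at percentile 5.55 of the protection changes, and the IRF9 motif, at 4229 sites, from 0.591 to 0.550, at percentile 6.62. For IRF4 protection went from 0.557 to 0.523 and for IRF8 from 0.267 to 0.245. IRF1, with 21050 sites and a protection of 0.859 in -HOT, went the other way, to 0.869. By the summed change the IRF motifs were less far out, with IRF3 at percentile 16.6, IRF9 at 25.8 and IRF4, the lowest, at 15.2. The sums of IRF1 (0.0197) and IRF7 (0.00229) were above 0. IRF motifs resemble each other and share sites, so they are not independent readings.

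Among the 9 STAT motifs the changes were nearer to 0, with -0.0220 for STAT3 as the lowest sum and a median of -0.00390. The Stat5a motif had a protection of 0.130 in -HOT and 0.133 in +HOT. Taken alone, tag counts gave a median change of 0.000805 over the 17 motifs and did not show a common direction. By family, the median was -0.0133 for the 8 IRF motifs, with 5 below 0, and 0.00209 for the 9 STAT motifs, with 3 below 0. Of all 559 motifs 51.0% were below 0.

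**Figure D4:**
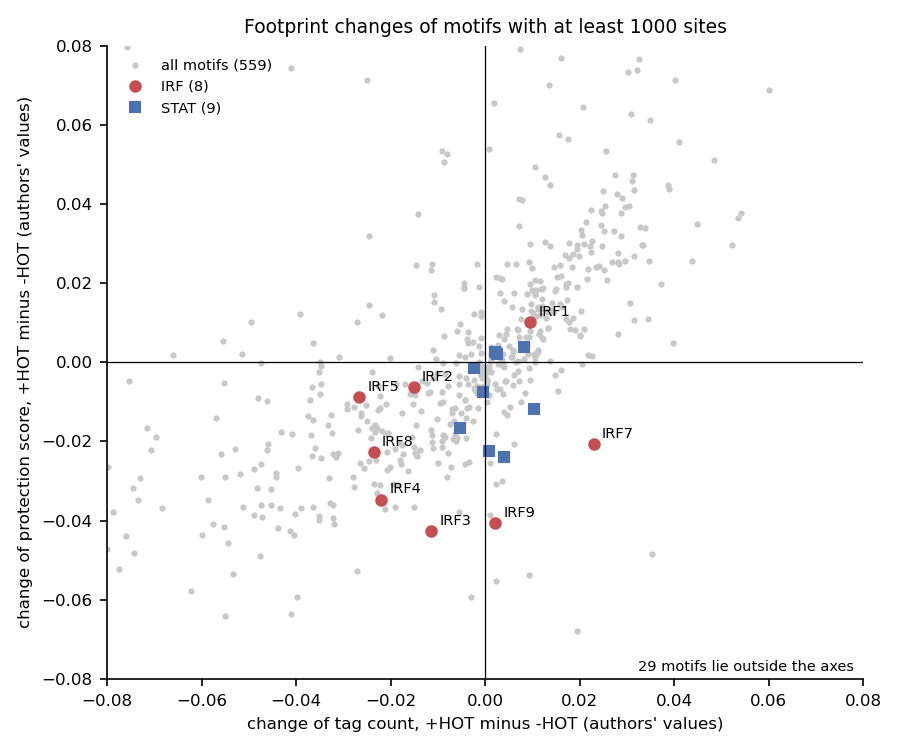
Change of the authors' protection score against the change of their tag count, both +HOT minus -HOT, for the 559 motifs with at least 1000 sites; red circles are the 8 IRF motifs, blue squares the 9 STAT motifs, grey dots all motifs, of which 29 lie outside the axes. IRF3 and IRF9 lie near the lower edge of the grey cloud, IRF1 lies above 0 on both axes and the STAT motifs lie near the centre.

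Other genes of the pathway, 91 in 4 lists, gave 124 sites for 82 genes, and among these 10 were gained and 35 lost, or 8.06% and 28.2%; the median log2 fold change was -0.25. The promoter background had 8.21% gained and 22.8% lost with a median of -0.19, and DESeq2 called 6 of the pathway sites gained. Of the kinases and negative regulators, 5 of 16 sites were lost and 0 gained by edgeR; of the sensing and signalling genes, 4 of 23 were lost and 2 gained. Other interferon-stimulated genes had 22 of 73 sites lost and 8 gained, and other antigen presentation genes 4 of 13 lost and 0 gained. In both lists with 0 gained sites, DESeq2 and an unadjusted p under 0.05 gave 0 as well.

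The lost pathway sites with the greatest change were at Irgm1 (log2 fold change -1.43, an immunity-related GTPase), Znfx1 (-1.40), Pias1 (-1.12, an inhibitor of STAT signalling), Mlkl (-1.06, the executor of necroptosis) and Tlr3 (-1.06, the endosomal receptor of double-stranded RNA). Only those of Mlkl and Tlr3 lay at the nearest start. The other sites had few reads: 2.36 and 3.28 CPM against 1.30 and 0.722 CPM at Irgm1, and 2.11 and 2.34 CPM against 1.23 and 0.768 CPM at Pias1. Znfx1 had 5.25 and 6.19 CPM against 2.11 and 2.21 CPM. The sites at the nearest start of Irgm1 (32.2 and 35.9 CPM against 28.9 and 26.1 CPM) and of Pias1 (25.7 and 25.3 CPM against 23.1 and 18.5 CPM) were not called. Mlkl fell from 14.8 and 14.8 CPM to 6.67 and 7.54 CPM, and Tlr3 from 13.9 and 12.5 CPM to 6.74 and 5.87 CPM, without overlap of the groups. The gained ones with the greatest change were Traf3 (1.19, an adaptor of interferon induction), Slfn2 (0.96), Lgals9 (0.91, galectin-9), Trim30a (0.89) and Oas3 (0.87), all with under 6 CPM in every library. Without +HOT replicate 2 the calls of Slfn2 (0.50), Lgals9 (0.51) and Oas3 (0.64) were lost, and that of Oas3 was lost also without -HOT replicate 1 (0.86), with DESeq2 (0.87) and with abundance-trended offsets (0.60).

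**Figure D5:**
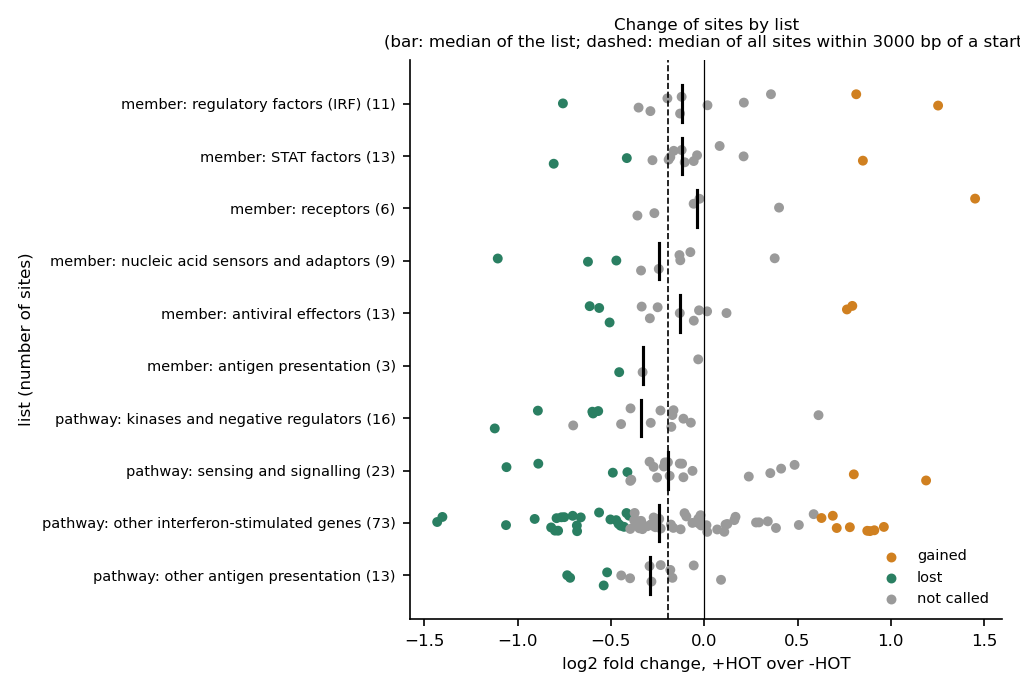
Log2 fold change (+HOT over -HOT) of each site in the 6 role groups of members and the 4 pathway lists, with the number of sites in parentheses; orange is gained, green lost, grey not called, black bars are list medians and the dashed line is the promoter background median of -0.19. The list medians lie between -0.34 for the kinases and negative regulators and -0.04 for the receptors; the sign turned for the receptors with library totals (0.03), abundance-trended offsets (0.14) and the GC trend removed (0.05), and for the IRF genes with the last pair.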

How the data were processed

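Reads were trimmed (Trim_Galore), aligned to mm9 (BWA), freed of duplicates (Picard) and used for narrow peaks (MACS2) by the authors, who deposited raw read counts per interval and library, whose depth is in the report. The deposited size-factor-scaled signal was only checked against the counts, and deposited fold changes and p-values of the authors' own DESeq2 comparison were not used. Footprint scores (protection score and tag count per motif) were deposited by the authors from RGT-HINT on merged replicates. The sources used here do not give tool versions, how peaks of the libraries were joined, or any shift of read ends. Duplicate removal caps strong sites, and closed chromatin is unmeasured. According to the study's methods, 1 -HOT library took fewer PCR cycles; which one is not given.

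Counts were tested with edgeR 4.0.16 (R 4.3.3): filterByExpr (6 intervals did not pass), TMM, glmQLFit and glmQLFTest, Benjamini-Hochberg over all 119603 sites, with simulated counts as a check of the code; DESeq2 1.42.0, other scalings, a replicate block, no filter, other windows and leaving out each library were alternatives. Starts were moved by 1 to 1-based positions. Mb21d1 was matched through a RefSeq synonym to E330016A19Rik. Replicates correlated at 0.984 (-HOT) and 0.976 (+HOT) in log2 CPM and differed by more than sampling noise. Named with values are members with a called site and others near their start, by value or range, and the 5 called pathway genes with the largest change in each direction; members and lists were chosen with earlier results of these data known. Sites not called that changed sign in an alternative are given without a fold change. Some motifs and a marker are not reported here by name.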

Additional observations from a re-analysis of the deposited data

How the results depend on the processing

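Of the 16 called member sites, 6 were called in all 12 alternative fits: the lost sites of Mb21d1, Irf5, Tmem173 and Bst2 and the gained sites of Ifngr2 and Ifit3. None of the 16 changed sign in these fits. Of the 39 sites not called, 21 changed sign in at least 1 fit, all with a log2 fold change between -0.19 and 0.21 as reported. The other 10 called sites missed the call in 1 to 5 fits each, with the values in the report; the causes were not tested.

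The count of gained member sites, 6 as reported, was 1 within 1000 bp of a TSS and 0 with the nearest site per gene, and that of lost sites, 10, was 19 with no fold minimum, 14 with TMM factors from distal sites, where Irf7, Ifngr2, Dhx58 and B2m were called in addition, 7 under abundance-trended offsets, and 7 once the GC trend was taken out. For the pathway lists, gained sites went from 10 to 6 with DESeq2, 3 within 1000 bp and 5 with the nearest site per gene, and lost sites from 35 to 55 with no fold minimum and 22 with the nearest site per gene. Over all sites DESeq2 called 15091 gained. The median log2 fold change of the members, -0.13, was -0.21 with TMM factors from distal sites, -0.0704 with abundance-trended offsets, -0.0586 with library totals, -0.18 within 1000 bp and -0.22 with the nearest site per gene; fewer sites enter the last pair, and the other causes were not tested. Without 1 library, 4 to 5 member sites were gained and 8 to 12 lost. The match of Mb21d1 through a synonym was made after seeing the data; without it 6 were gained and 9 lost.

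The replicate numbers are not stated to pair the libraries, and same-numbered libraries deviated together with a correlation of only 0.0409; with the replicate block, 6 member sites were gained and 10 lost, and 25666 and 17131 over all sites. Precision rests on reads: all gained member sites had a mean under 10 CPM.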
